A study of Mus musculus with 12 samples.

Results

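The cytosolic ribosomal protein genes are 86 of the 31114 genes that could be joined to transcripts in the livers of 12 mice. They were chosen by name alone, as the protein-coding genes of build GRCm38 whose symbol starts with Rpl or Rps and a digit, or with Rplp or Rpsa, without the S6 kinases (Rps6k) and without symbols that contain -ps. Of the 86 members, 46 encode proteins of the large ribosomal subunit, 31 encode proteins of the small subunit, 8 are paralogs or retrogenes of such proteins and 1 (Rps19bp1) encodes a protein that binds RPS19. The filter on low values (TPM, the length-scaled abundance given by Salmon, at or above 5 in 4 or more livers) was passed by 8846 genes, among them 82 members.

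All animals were hFIX-R29X mice, a model of hemophilia B that lacks mouse F9 and carries a minigene of human factor IX interrupted by the nonsense codon R29X, under the human transthyretin promoter, which is active mainly in hepatocytes. The mice, 8 to 14 weeks of age, received 6 doses, 1 every 5 days, and their livers were collected 48 h after the last dose. The 3 groups held 4 mice each, with 2 females (replicates 1 and 2) and 2 males (replicates 3 and 4). They were given the vehicle DPBS (spelled DBPS in the labels), a scrambled Control-GalNAc-ASO at 15 mg/kg, or a Upf3b-GalNAc-ASO at 10 mg/kg. An ASO is an antisense oligonucleotide, and GalNAc is a sugar that directs it to hepatocytes. The groups are called DPBS, control ASO and Upf3b-ASO here.

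Ribosomal proteins assemble with ribosomal RNA in the nucleolus, and each subunit needs its proteins in equal numbers, so that their genes are expressed together at high and similar levels. Their mRNAs typically start with a run of pyrimidines (the TOP motif), through which their translation follows nutrient signals, and many of their introns hold small nucleolar RNAs. Several ribosomal proteins limit their own amount by splicing: when in excess, they favour an isoform with an early stop codon that is degraded by nonsense-mediated mRNA decay (NMD), the pathway in which UPF3B acts.

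Sequencing depth was 13277892 to 20387682 estimated counts per liver. It went with treatment: 13277892 to 17054313 in Upf3b-ASO livers, 17642996 to 18764106 with control ASO and 18500135 to 20387682 with DPBS. Every Upf3b-ASO liver thus had fewer counts than every liver of the other groups. Upf3b lay at 0.65 to 1.58 CPM (counts scaled to a common library total, with TMM factors) in Upf3b-ASO livers, against 9.38 to 13.4 CPM in DPBS and 7.93 to 12.01 CPM in control ASO livers, and fell by 3.30 ± 0.27 on the log2 scale against control ASO (SE, n = 4 each; edgeR adjusted p = 7.4e-05). Markers of hepatocytes made up 7.92% to 13.1% of counts in every liver, with 1 of 12 lower in Upf3b-ASO than in control ASO livers (Serpina1a), and 2 lower (Serpina1a, Ahsg) and 1 higher (Cyp3a11) than in DPBS. Of 34 tested markers of Kupffer cells, endothelium, stellate cells, bile duct, lymphocytes and red cells, only the stellate list held a call, Rgs5, which was lower against control ASO. Over all genes tested 10.3% were called against control ASO and 8.93% against DPBS. A control ASO male, replicate 3, stood apart: acute phase genes took 6.58% of its counts against 0.992% to 1.68% in the other 11 livers, and its TMM factor was 0.775. In a whole liver, fewer cells of a type and less RNA per cell cannot be told apart.

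The only ribosomal protein transcript that was called was an isoform of Rps19, which encodes a small subunit protein needed for maturation of the 18S ribosomal RNA and mutated in Diamond-Blackfan anemia. Rps19 lies at chr7:24884371-24889806 on the plus strand of GRCm38. Its isoform Rps19-205, 593 bases long, carries the NMD biotype in the annotation. The coding isoform Rps19-202 has 6 exons and is 633 bases long, so the 2 isoforms also differ in their other bases. Compared with it, Rps19-205 holds an additional exon 4 of 81 bases at chr7:24886107-24886187. This was the only whole exon outside coding isoforms in any of the 11 NMD isoforms of the members. A length of 81 bases leaves the reading frame intact, but the exon brings its own stop codon, TGA at chr7:24886151-24886153. The reading frame then ends after 72 codons instead of 145, and 273 bases separate the stop from the last exon junction. The junctions are shown as they read in the GENCODE M21 transcripts, with bases of the additional exon in capitals. The last of the 4 lines shows the end of the shortened reading frame, with its stop codon in capitals.
Rps19-205 exon 3 to additional exon (chr7:24885538-24886121, plus strand, across the junction): tctacacacgagctgGCTTTGGCATGGGCA
Rps19-205 additional exon to exon 5 (chr7:24886173-24888296, plus strand, across the junction): ACAGTGTGGGAAAAGcttccacagcacggc
Rps19-202 exon 3 to exon 4 (chr7:24885538-24888296, plus strand, across the junction): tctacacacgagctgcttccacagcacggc
Rps19-205 up to the stop codon (chr7:24886124-24886153, plus strand): gggaccaccatgactcaacacagcctcTGA

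Rps19-205 was measured at 4.35, 3.71, 1.96 and 3.61 CPM in DPBS replicates 1 to 4. In control ASO livers it was at 4.97, 5.80, 3.62 and 4.11 CPM, and in Upf3b-ASO livers at 14.7, 13.4, 10.6 and 11.9 CPM. All 4 Upf3b-ASO livers lay above all 8 others, and control ASO replicate 3 was among the lower ones. The isoform rose by 1.46 ± 0.20 on the log2 scale against control ASO (SE; edgeR quasi-likelihood test with Benjamini-Hochberg adjustment over 37101 transcripts, adjusted p = 0.013) and by 1.90 ± 0.20 against DPBS (adjusted p = 0.0037). It was the only one of 280 tested member transcripts to pass that threshold in either comparison. Over all transcripts 0.792% were called against control ASO and 0.779% against DPBS. A two-sided exact permutation test over the livers gave p = 0.0286 in both comparisons, the smallest value that 4 against 4 livers allow. It restates that the groups did not overlap and adds no support, because the isoform was picked by its call on these same values. The permutations did not keep the sexes apart. Control ASO and DPBS livers differed by 0.44 (edgeR adjusted p = 0.99; exact permutation p = 0.171). The values rested on 34.5 to 104 estimated counts per liver in the reference groups and 157 to 247 in Upf3b-ASO livers.

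As a share of all Rps19 counts, Rps19-205 took 3.37% ± 0.83 with DPBS, 4.27% ± 1.15 with control ASO and 9.43% ± 1.78 with Upf3b-ASO (SD, n = 4 each). The share was 11.4%, 10.4%, 7.73% and 8.13% in Upf3b-ASO replicates 1 to 4, above the highest of the other 8 livers, 5.54%. The difference was 5.16 percentage points against control ASO and 6.06 against DPBS (exact permutation p = 0.0286 for each, which again only restates the lack of overlap). Most Rps19 counts lay on 2 other isoforms. Rps19-206, a retained intron isoform, held 44.0% ± 1.95, 43.4% ± 1.75 and 38.0% ± 1.73 in the same order. The coding isoform Rps19-210 held 40.7% ± 2.76, 40.5% ± 1.94 and 37.2% ± 0.76. The coding isoform Rps19-202 took 3.89% ± 0.53, 3.38% ± 1.43 and 6.43% ± 2.15, and its own change against control ASO was 1.25 ± 0.31 on the log2 scale (edgeR adjusted p = 0.13). Salmon divides reads between overlapping isoforms by estimate, and that error is not part of the tests.

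Summed over its isoforms, Rps19 stood at 109.7, 104.1, 95.6 and 98.2 CPM in DPBS livers. It was at 105.2, 106.2, 129.7 and 115.8 CPM in control ASO livers and at 133.0, 128.9, 135.0 and 144.1 CPM in Upf3b-ASO livers. The Upf3b-ASO livers lay above all DPBS livers and overlapped control ASO replicate 3. Rps19 rose by 0.41 ± 0.08 on the log2 scale against DPBS (SE; edgeR adjusted p = 0.013), and its difference from control ASO was 0.24 ± 0.08 (edgeR adjusted p = 0.090; 0.0088 without control ASO replicate 3). The call against DPBS was lost without DPBS replicate 4 (adjusted p = 0.052) or without Upf3b-ASO replicate 4 (adjusted p = 0.054).

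**Figure D1:**
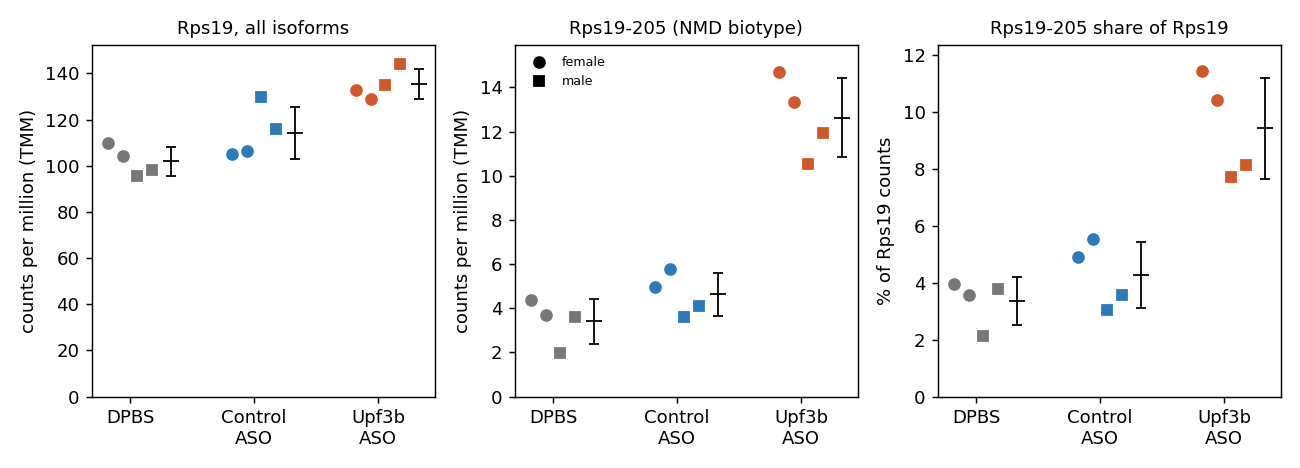
Rps19 in the 12 livers: CPM of all isoforms together (left), CPM of Rps19-205 (middle) and Rps19-205 as percent of Rps19 counts (right). Circles are females, squares are males, black bars are mean ± SD of 4 livers. In the middle and right panels the 4 Upf3b-ASO livers sit above the 8 others (10.6 to 14.7 CPM against 1.96 to 5.80 CPM), whereas in the left panel they overlap the control ASO group.

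Among the other members with an NMD isoform are ribosomal proteins known for splicing coupled to decay, Rpl3, Rpl10a, Rpl12 and Rps9. The reading frames of Rpl3, Rpl12 and Rps9 end as printed here, with the stop codon in capitals, so that each early stop can be set beside that of Rps19-205. The bases between stop codon and last exon junction numbered 358 in Rpl12-201, 539 in Rpl10a-203, 138 in Rpl3-205 and 161 in Rps9-210. Over the 11 NMD isoforms they ranged from 69 in Rps27l-206 to 539. The Rpl12 and Rps9 sequences cross an exon junction, so only the last base of the stop codon is placed for them.
Rpl12-201 (ends at chr2:32962596-32962596, plus strand): gggtctgtctccgaagaaagttggcgaTGA
Rpl3-205 (chr15:80081034-80081063, minus strand): gcccctcccccaactgtgctctgctccTGA
Rps9-210 (ends at chr7:3706020-3706020, plus strand): cgccaacgtcacattagcctttggagcTGA

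Rpl12-201, from the gene of a protein at the base of the large subunit stalk, was at 1.45 to 2.94 CPM in DPBS livers and at 9.22, 4.65, 9.28 and 9.77 CPM in Upf3b-ASO livers. The control ASO livers held 2.75, 2.67, 9.75 and 2.74 CPM. The Upf3b-ASO values lay above DPBS and above 3 of the 4 control ASO livers, and replicate 3 of the control ASO group was as high as the treated livers. The log2 difference was 1.82 ± 0.44 against DPBS (SE; edgeR adjusted p = 0.12) and 0.95 ± 0.43 against control ASO (adjusted p = 0.43).

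Rpl3-205, from the gene of a large subunit protein near the peptidyl transferase centre, was at 0.86 to 2.58 CPM in DPBS and 3.33 to 4.38 CPM in Upf3b-ASO livers, a log2 difference of 1.25 ± 0.45 (edgeR adjusted p = 0.36). Rps9-210, from the gene of a small subunit protein, was at 0.95 to 2.67 CPM and 2.84 to 5.12 CPM, a log2 difference of 1.137 ± 0.54 (edgeR adjusted p = 0.56). For both isoforms the highest of all 12 livers was control ASO replicate 3, with 5.80 and 5.47 CPM. Rpl10a-203 reached 44.6 CPM in that liver against 6.40 to 20.6 CPM in the other 11.

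Of the 9 NMD isoforms of members that passed the count filter, 4 lay above all DPBS livers in all Upf3b-ASO livers (Rps19-205, Rpl12-201, Rpl3-205 and Rps9-210), against 4.5% of all NMD isoforms tested. Against control ASO only Rps19-205 did, with 3.49% over all NMD isoforms, and no member isoform did so between control ASO and DPBS, with 1.63%. Over all 280 member transcripts tested, 13 lay wholly above control ASO (3.7% of all transcripts), 26 wholly above DPBS (4.39%), and 4 did so between control ASO and DPBS (1.2%). The abundant NMD isoform Rpl6-208 showed no such separation and ranged from 61.6 to 80.999 CPM over all 12 livers. Rpl36a-205 was at 4.80 to 14.2 CPM in DPBS and 6.05 to 9.22 CPM in Upf3b-ASO livers.

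**Figure D2:**
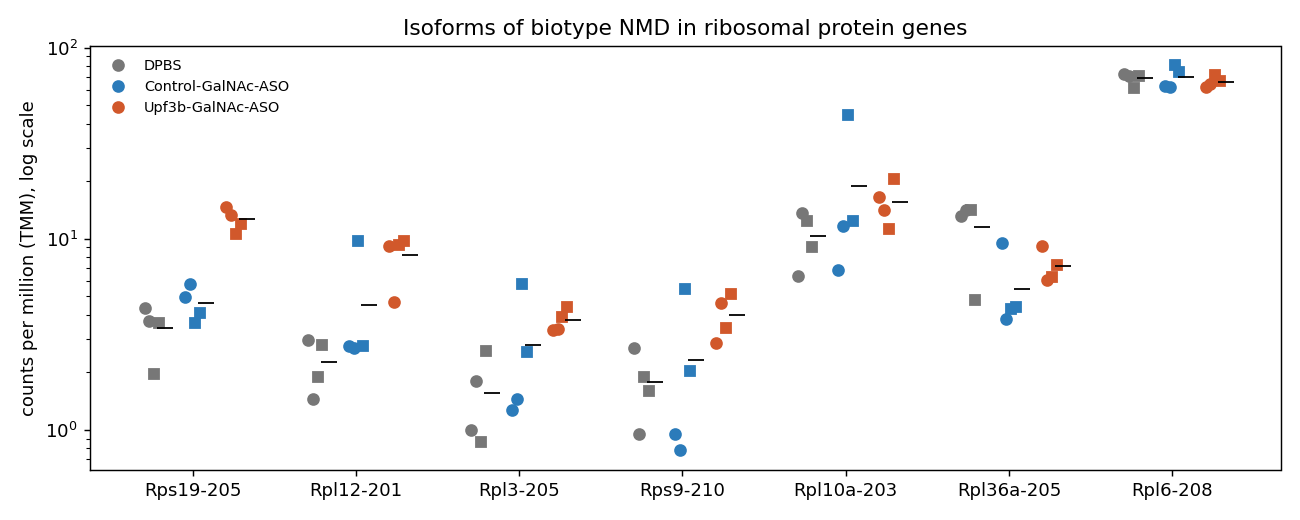
CPM (log axis) of NMD isoforms of ribosomal protein genes in the 12 livers, with a point for each liver (circles female, squares male) and a black mark for the mean of each group of 4. Rps19-205 is separated from both reference groups in Upf3b-ASO livers, and in Rpl12-201, Rpl3-205 and Rps9-210 the highest control ASO point, replicate 3, lies within or above the Upf3b-ASO points.

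To ask whether reads moved between isoforms within a gene, the log2 odds of counts on NMD isoforms against all other isoforms were compared with limma. No member passed the threshold among 10 tested, with 0.144% of 1388 genes called against control ASO, 0.072% against DPBS and none between control ASO and DPBS. At an unadjusted p under 0.05 there was 1 member of 10 against control ASO (8.14% of all genes), there were 4 of 10 against DPBS (7.28%), 3 of them higher and Rpl36a lower, and 1 between control ASO and DPBS (4.68%), again Rpl36a and lower. Rps19 had the lowest adjusted p of the members, with differences in log2 odds of 1.24 ± 0.26 against control ASO (SE; limma adjusted p = 0.30) and 1.59 ± 0.26 against DPBS (adjusted p = 0.075). With a minimum of 50 counts on each side Rps19 passed in both (adjusted p = 0.030 and 0.0065). The median difference in log2 odds over the members was 0.33 against control ASO and 0.73 against DPBS, beside 0.06 and 0.10 over all genes, with 0.36 beside 0.03 for control ASO against DPBS.

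Over all members together the NMD share did not separate the groups. NMD isoforms held 2.10% ± 0.08 of the summed ribosomal protein TPM with DPBS, 2.02% ± 0.22 with control ASO and 2.05% ± 0.11 with Upf3b-ASO (SD, n = 4 each). Retained intron isoforms held 7.97% ± 0.18, 8.29% ± 0.40 and 7.97% ± 0.32, with the highest value, 8.87%, in control ASO replicate 3. These retained intron isoforms, 124 in 45 genes, took a median of 3.35% of the counts of their gene, but 91.3% of Rps16, 80.0% of Rpl21 and 77.0% of Rps20. Rps16 and Rps20 encode small subunit proteins and Rpl21 a large subunit protein. No member of 37 passed the limma test of retained intron odds against control ASO or DPBS, with 0.0614% of 3255 genes called in each, nor between control ASO and DPBS, where no gene was called. At an unadjusted p under 0.05 there was 1 member against control ASO (9.55% of all genes), and there were 4 against DPBS (6.7%) and 2 between control ASO and DPBS (4.95%). Rpl21 had the lowest p against control ASO, with a difference in log2 odds of -1.005 ± 0.39 (limma adjusted p = 0.47).

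At gene level the ribosomal protein genes differed little between livers. Their mean TPM, rescaled to the joined genes, ran from 12.5 for Rps19bp1 to 995 for Rplp1, an acidic protein of the ribosomal stalk, with a median of 371. After Rplp1 the highest mean TPM belonged to Rpl7 (881), Rpl41 (865), Rps2 (863) and the retrogene Rps27rt (848), and the lowest after Rps19bp1 to Rpl12 (20.1) and Rps27 (25.5). Of the 31-base stretches of Rps27rt, 91.6% also occur in other members, and 27.4% of those of Rps27 do, so that the levels and differences of this pair rest on an estimated division of reads. Most joint counts of Rpl12 lay on its pseudogene copies. Rpl12 was at 7.11 to 20.6 CPM by itself and at 108 to 185 CPM summed with these copies. The median coefficient of variation of CPM over the 12 livers was 10.7% for members and 17.5% for all genes tested, and 73 of 82 members stayed within a 2-fold range. The 2 sets were not matched for abundance, so the lower value cannot be read as a trait of the members. The steadiest member was Rpl14 (6.29%). The most variable were Rps27 (80.1%), Rpl12 (46.2%) and Rpl22l1 (30.6%). Pairs of members had a median correlation of log2 CPM of 0.59 over the 12 livers, which share library and scaling, and 0.49 without control ASO replicate 3.

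Against control ASO, 2 of 82 tested members were higher in Upf3b-ASO livers and none was lower, while 10.3% of all genes were called (4.34% higher and 5.95% lower). At an unadjusted p under 0.05 there were 8 members, against 28.0% of all genes. Both called members are paralogs of ribosomal proteins, and no subunit gene passed. Rps27l, a paralog of Rps27 known as a p53 target, was at 71.0, 68.2, 88.5 and 91.7 CPM in control ASO livers and at 88.9, 99.8, 108.9 and 116.7 CPM in Upf3b-ASO livers. The groups overlapped, because the lowest treated liver was under the highest control ASO liver. DPBS livers were at 80.2 to 87.7 CPM, under all Upf3b-ASO livers. Rps27l rose by 0.38 ± 0.09 on the log2 scale against control ASO (SE; edgeR adjusted p = 0.029; 0.057 with the replicate block), and the difference from DPBS was 0.30 ± 0.09 (adjusted p = 0.078). Of 6 other tested p53 target genes on a list, 2 were higher, the cell cycle gene Ccng1 by 1.05 ± 0.12 (edgeR adjusted p = 0.00063) and the apoptosis gene Bax by 0.53 ± 0.12 (adjusted p = 0.022). The other 4 did not pass, with log2 fold changes from -2.96 to -0.27 against control ASO and from -0.09 to 0.51 against DPBS, and the median of the 6 was -0.30 and 0.43. Control ASO replicate 3 held 0.214% of its counts on this list, and each of the remaining 11 livers held 0.0220% to 0.0579%.

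Rpl7l1, a paralog of Rpl7, was at 54.1, 56.0, 52.6 and 60.0 CPM in control ASO livers and at 64.2, 71.7, 71.1 and 73.2 CPM in Upf3b-ASO livers. These 2 groups did not overlap, but DPBS livers (55.9 to 67.8 CPM) overlapped both. It rose by 0.33 ± 0.08 on the log2 scale against control ASO (edgeR adjusted p = 0.028), and the difference from DPBS was 0.17 ± 0.08 (adjusted p = 0.24). The calls of both paralogs were lost without control ASO replicate 1 or 2 or without Upf3b-ASO replicate 2, 3 or 4, with adjusted p from 0.058 to 0.104 in those fits.

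Rps19bp1, whose product binds RPS19 and is known as a regulator of SIRT1, was at 4.2, 6.3, 3.6 and 5.9 CPM in control ASO livers. In Upf3b-ASO livers it was at 6.5, 8.1, 8.2 and 8.2 CPM, above every control ASO liver. Its log2 difference was 0.63 ± 0.19 (edgeR adjusted p = 0.064; 0.034 with the replicate block). DPBS livers, at 5.1 to 7.1 CPM, overlapped both groups.

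The largest negative difference against control ASO was that of the retrogene Rps27rt, -0.31 ± 0.10 (edgeR adjusted p = 0.079). Rps27rt was at 101.3, 112.3, 139.9 and 113.4 CPM in control ASO livers and at 87.6, 91.5, 99.0 and 98.1 CPM in Upf3b-ASO livers. These groups did not overlap, but DPBS livers (96.1 to 113.8 CPM) overlapped both. In all, 2 members lay wholly above (Rpl7l1 and Rps19bp1; 7.74% of all genes) and 3 wholly below control ASO livers (Rpl10 and Rps27rt among them; 7.69%). Without control ASO replicate 3 the counts were 16 above (13.0%) and 3 below (13.1%).

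**Figure D3:**
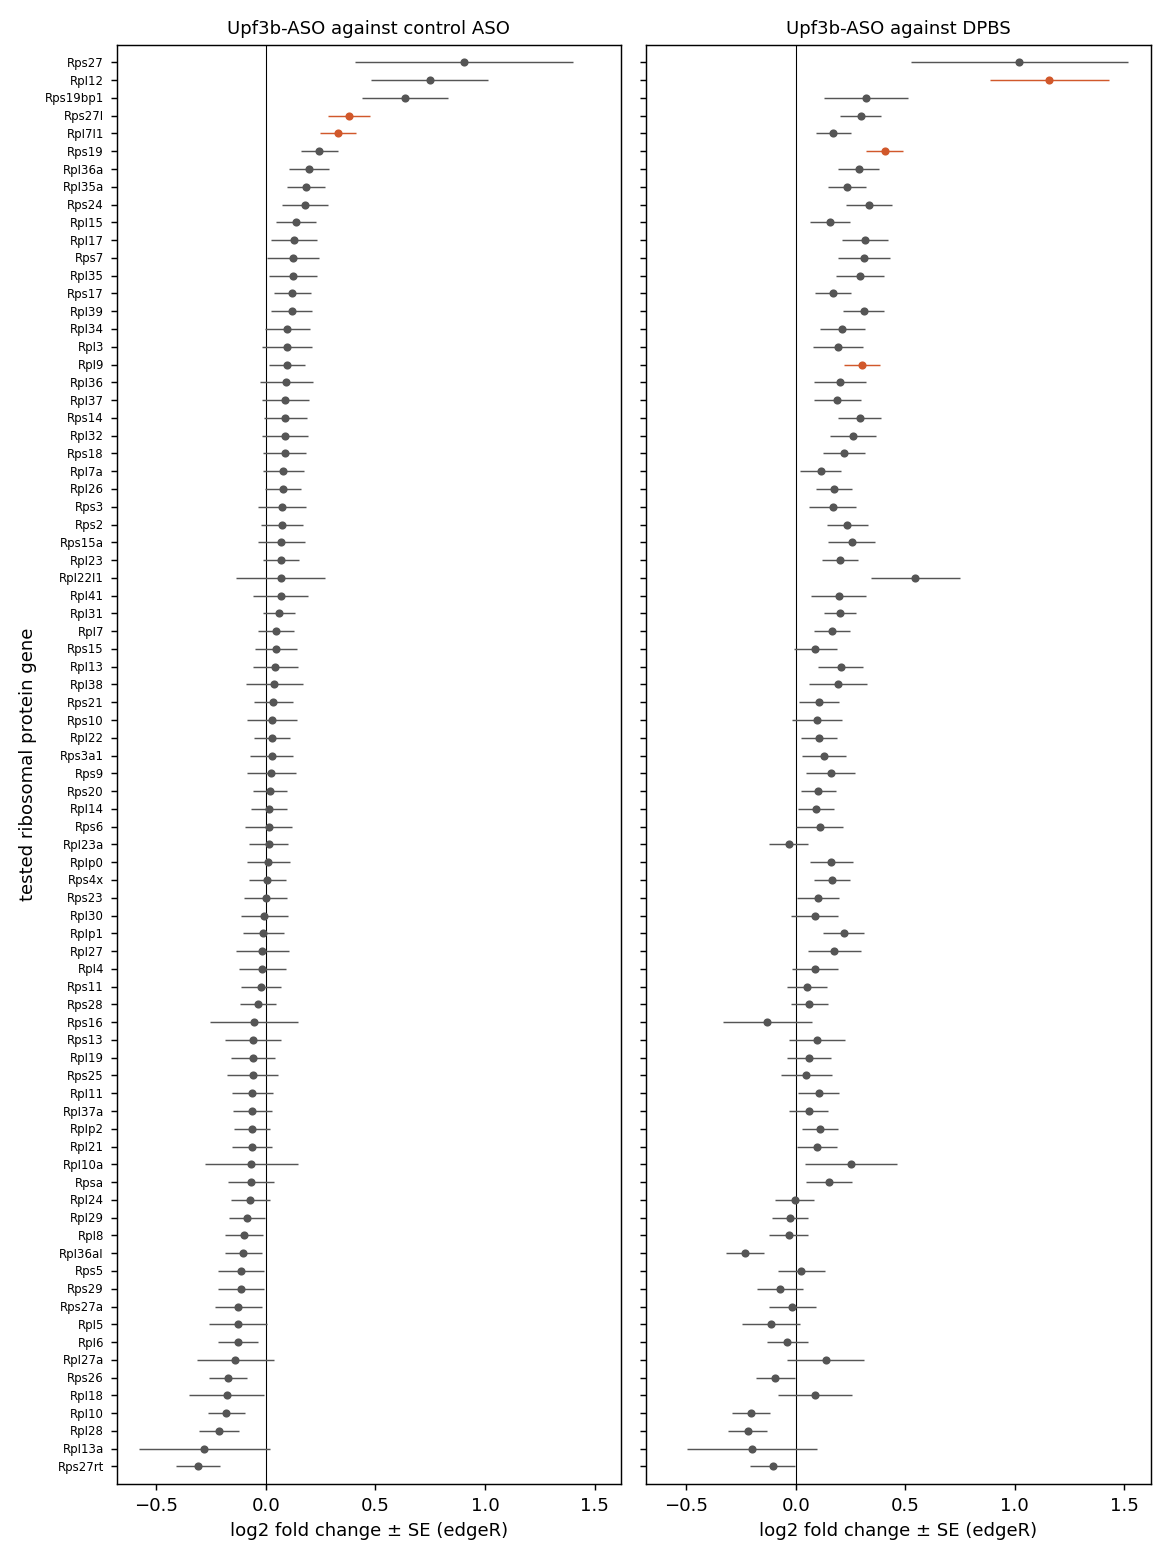
Log2 fold change ± SE (edgeR, x axis) of tested ribosomal protein genes for Upf3b-ASO against control ASO (left) and against DPBS (right), with the genes in both panels in the order of the left one and a few genes left out. Orange points passed the threshold of adjusted p. Most members lie within 0.5 of 0 on the log2 scale, 79 of 82 in each of the comparisons of Upf3b-ASO with control ASO and with DPBS.

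Against DPBS, 3 of 82 members were higher in Upf3b-ASO livers (Rpl12, Rps19 and Rpl9) and none was lower, while 8.93% of all genes were called (3.57% higher and 5.36% lower). At an unadjusted p under 0.05 there were 23 members, 28.0% of those tested, beside 23.2% of all genes. Of the counts of Rpl12, a mean of 40.4% lay on its NMD isoform Rpl12-201 and 56.7% on retained intron isoforms. Its gene-level values are therefore not separate from those of Rpl12-201. Rpl12 was at 7.5, 7.1, 8.3 and 7.3 CPM in DPBS livers and at 15.5, 15.7, 16.2 and 20.6 CPM in Upf3b-ASO livers. The control ASO livers held 7.6, 7.3, 19.7 and 7.1 CPM, so that replicate 3 was as high as the treated livers and the other 3 as low as DPBS. Rpl12 rose by 1.16 ± 0.27 on the log2 scale against DPBS (SE; edgeR adjusted p = 0.024). Against control ASO the difference was 0.75 ± 0.27 (adjusted p = 0.10), and without replicate 3 it was 1.19 (adjusted p = 6.4e-05). The call against DPBS was lost when any 1 liver of either group other than Upf3b-ASO replicate 3 was left out (adjusted p from 0.052 to 0.078).

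Rpl9, a large subunit protein named here after its values were seen, was at 133.2 to 152.5 CPM in DPBS, 153.8 to 184.2 CPM in control ASO and 170.7 to 182.7 CPM in Upf3b-ASO livers. Both ASO groups lay above the DPBS group. It rose by 0.30 ± 0.08 on the log2 scale against DPBS (edgeR adjusted p = 0.045; 0.091 with the replicate block and 0.059 summed with its copies), and the call was lost without any 1 of the 8 livers (adjusted p from 0.065 to 0.136).

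The 4 livers of the Upf3b-ASO group lay above all DPBS livers for 21 members (10.4% of all genes did) and below them for 2, Rpl10 and Rpl28 (12%). Rpl10, a late-joining large subunit protein, was at 162.4 to 177.7 CPM in DPBS and 140.9 to 153.9 CPM in Upf3b-ASO livers, a difference of -0.20 ± 0.09 (edgeR adjusted p = 0.19). Copies held 58.9% of the joint counts of Rpl10, and summed with them the difference was -0.03 ± 0.09 against DPBS and -0.09 ± 0.09 against control ASO (edgeR adjusted p = 0.89 and 0.56), with overlapping groups. Rpl28, another large subunit protein, differed by -0.22 ± 0.09 (adjusted p = 0.17). Among members with positive differences that missed the threshold, Rpl39 was at 0.31 ± 0.09 (adjusted p = 0.069) and Rpl36a at 0.29 ± 0.09 (adjusted p = 0.083). The paralog Rpl22l1 was at 0.54 (adjusted p = 0.13), with 21.6 to 24.0 CPM in DPBS and 27.4 to 37.4 CPM in Upf3b-ASO livers, and its highest value, 52.8 CPM, was again in control ASO replicate 3.

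The scrambled ASO was set against vehicle as the background of dosing. Between these groups no member was called by edgeR and 1 gene in all was (0.0113%), with 3 members at an unadjusted p under 0.05 (6.97% of all genes). Separation of the livers was also rare. Rpl9 and Rplp2, a stalk protein, lay wholly above DPBS (1.29% of all genes) and no member wholly below (1.66%).

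The 3 comparisons share groups, and their medians are given side by side. Over the 82 members the median log2 fold change was 0.02 for Upf3b-ASO against control ASO, where 48 were positive, with -0.02 over all genes. For Upf3b-ASO against DPBS it was 0.15 with 66 positive, beside -0.00 over all genes, of which 49.97% were positive. For control ASO against DPBS it was 0.11 with 74 positive, beside 0.01 over all genes, of which 51.2% were positive. Large and small subunit genes had like medians, 0.16 and 0.12 against DPBS and 0.01 and 0.02 against control ASO. By TMM-scaled CPM, control ASO replicate 3 was the highest of 12 livers for 56 of 82 members, and DPBS replicate 3 the lowest for 51. Such ranks were not counted over all genes. The TMM factor of control ASO replicate 3 was 0.775. Its unscaled share of counts on members, 0.963%, lay within the DPBS range of 0.875% to 1.11%. Without control ASO replicate 3 the median against control ASO was 0.10, whereas it was -0.02 without control ASO replicate 1 or replicate 2, and that of control ASO against DPBS 0.04. Scaling by library size alone moved the median of all genes to 0.16 and that of the members to 0.20 against control ASO.

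The 45 tested members that are not singled out by the rule or by a call had a mean TPM of 69.8 to 740. Their log2 fold changes ran from -0.18 to 0.18 against control ASO and from -0.13 to 0.33 against DPBS. Several members named by the rule have roles beyond the ribosome, and none of the following was called. Rps6, the substrate of the S6 kinases, differed by 0.01 ± 0.11 against control ASO and 0.11 ± 0.11 against DPBS (SE). Rpl5 and Rpl11, which bind MDM2 when ribosome assembly is disturbed, differed by -0.13 ± 0.13 and -0.06 ± 0.10 against control ASO and by -0.11 ± 0.13 and 0.10 ± 0.10 against DPBS. Most joint counts of Rpl5 lay on pseudogene-like copies. Summed with them, Rpl5 differed by -0.001 ± 0.09 against control ASO and by 0.06 ± 0.09 against DPBS. The stalk base protein Rplp0, often used as a reference gene, differed by 0.01 ± 0.10 and 0.16 ± 0.10, and Rpsa, a small subunit protein also known as a laminin receptor, by -0.07 ± 0.11 and 0.15 ± 0.11.

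As a share of joined counts, members took 1.11%, 1.02%, 0.875% and 0.959% in DPBS replicates 1 to 4. The share was 1.03%, 0.979%, 0.963% and 1.06% in control ASO livers and 1.17%, 1.21%, 1.13% and 1.13% in Upf3b-ASO livers. The 4 Upf3b-ASO livers were the highest of the 12, with group means of 0.990% ± 0.0985, 1.01% ± 0.0460 and 1.16% ± 0.0392 (SD, n = 4 each). The ratio of means was 1.15 against control ASO, 1.17 against DPBS and 1.02 between control ASO and DPBS. As a share of TPM, members took 3.18% to 3.70% in Upf3b-ASO livers. That range overlapped DPBS (2.50% to 3.47%) and control ASO livers (2.70% to 3.29%). With TMM scaling the summed CPM of the members was 9365 to 10914 in DPBS, 10059 to 12754 in control ASO and 10961 to 11212 in Upf3b-ASO livers, and the Upf3b-ASO and control ASO livers overlapped. The highest was control ASO replicate 3. The part of a general shift in library composition in the share was not tested.

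**Figure D4:**
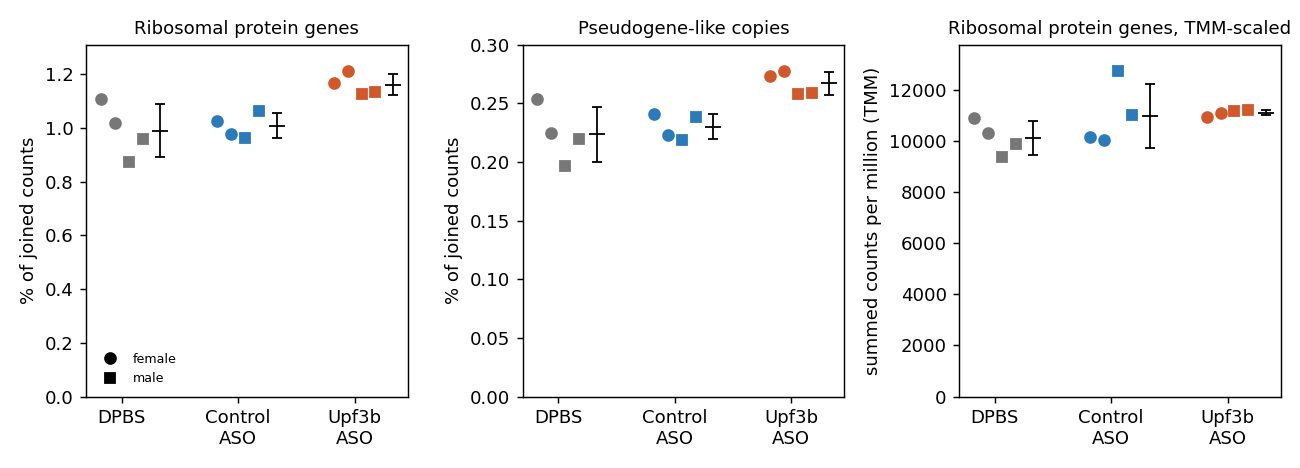
Share of joined counts on ribosomal protein genes and on their pseudogene-like copies, and the TMM-scaled sum over members, for each of the 12 livers (circles female, squares male, black bars mean ± SD of 4). The Upf3b-ASO livers are the highest in the share of member counts (1.13% to 1.21%), whereas the TMM-scaled sums overlap the control ASO group, whose highest point is replicate 3.

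Between the sexes, 1 of 82 members was called by edgeR, Rpl36al, a retrogene of Rpl36a, which was higher in males by 0.30 ± 0.07 on the log2 scale (adjusted p = 0.022), with 10.0% of all genes called (4.3% higher and 5.73% lower in males). The next was Rps28, a small subunit protein, with -0.23 ± 0.07 (adjusted p = 0.054). The count of called members differed by method. Unit, scaling and test changed together, and the part of each was not tested. By limma on log2(TPM + 1), 38 of 82 members were lower in males and none higher, with 24.7% of all genes called in either direction, and the share of TPM on members was 3.39% ± 0.25 in 6 females and 2.89% ± 0.28 in 6 males (SD), beside 1.085% ± 0.09 and 1.02% ± 0.10 of counts. No member had a sex by treatment interaction by edgeR, nor did any gene (0.0%), with 5 members at an unadjusted p under 0.05 (Rpl10a, Rpl27a, Rpl37 and Rpl38 among them) beside 7.31% of all genes. The interaction was above 0 for 5 of 82 members (51.1% of all genes). Without control ASO replicate 4, which leaves replicate 3 as the only control ASO male, 24 members were called beside 43.7% of all genes.

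Many ribosomal protein genes have near-identical pseudogene copies, between which and the gene reads are divided by estimate. By shared stretches of 31 bases, 561 pseudogene-like genes were assigned to members, and they held a mean of 41432 counts per liver beside 181603 on the members. For 10 members more than 50% of the joint counts lay on copies, and for 50 members under 5% did. Copies held 91.9% of the joint counts of Rpl12 (190 counts on the gene and 2154 on copies) and 89.5% of those of Rpl5, but 0.69% of those of Rps19, 0.04% of those of Rps27l and 0.02% of those of Rpl7l1. Rps12, a small subunit protein, had no count in any liver while its copies held a mean of 2536 counts. The other members that failed the filter, Rpl3l, Rpl10l and Rpl39l, paralogs known from muscle and testis, were at 0.22 CPM or less in every liver. Summed with its copies, Rpl12 was at 111 to 123 CPM in DPBS, 108 to 171 in control ASO and 163 to 185 in Upf3b-ASO livers, and rose by 0.53 ± 0.13 on the log2 scale against DPBS (edgeR adjusted p = 0.026).

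**Figure D5:**
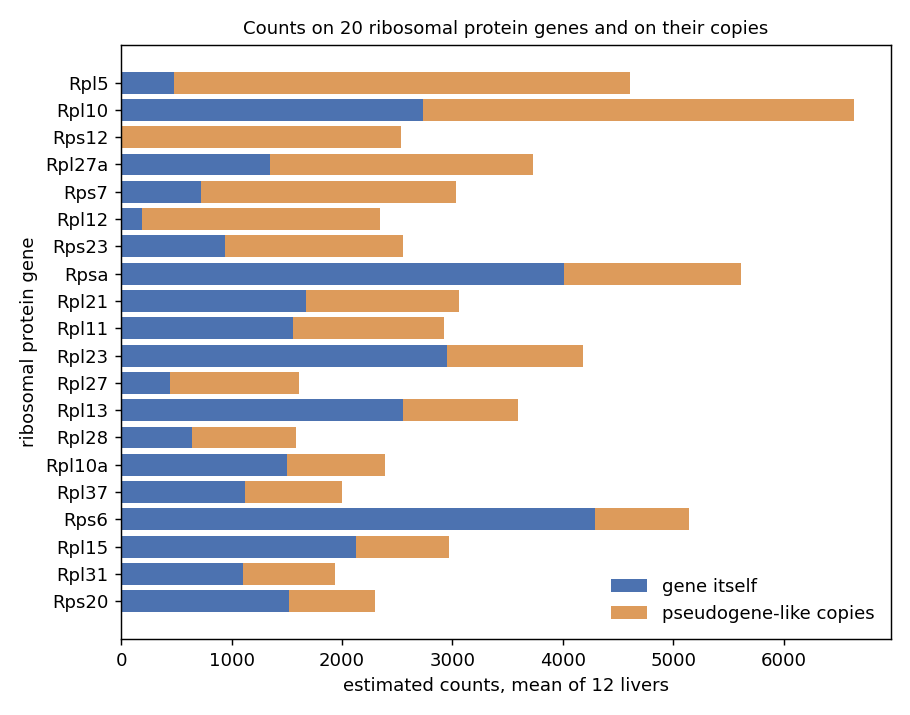
Estimated counts (mean of 12 livers) on the ribosomal protein gene itself (blue) and on its pseudogene-like copies (orange), for 20 members with large sums on copies, a few members being left out. For Rpl5, Rpl12 and Rps12 nearly all of the joint counts lie on copies, while Rplp1, Rps19 and the called paralogs are not among the 20.

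Among the more variable members, Rps27, a small subunit protein, was at 15.6 CPM in Upf3b-ASO replicate 1 and at 2.6 to 5.5 CPM in the other 11 livers, and its log2 difference of 0.90 ± 0.50 against control ASO (edgeR adjusted p = 0.26) was 0.04 without that liver. Rpl13a, a large subunit protein often used as a reference gene, was at 11.6 and 16.1 CPM in Upf3b-ASO replicates 1 and 3 and at 32.4 and 35.3 CPM in replicates 2 and 4, with 20.9 to 31.9 CPM in the reference groups.

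Features that the choice by name did not use were shared by many members. Of the 82 tested members, 29 (35.4%) contain annotated small nucleolar RNAs, 55 in all, beside 140 of 8423 other coding genes tested (1.66%). Rpl4 holds 5 and Rpl13a holds 4. These hosts had a median log2 fold change of -0.01 against control ASO and 0.11 against DPBS, beside 0.03 and 0.16 for the other 53 members. Members were found on 19 chromosomes, with 14 on chromosome 7, where Rps19 lies, and 8 each on chromosomes 9 and 17. Their longest coding transcript had a median length of 832 bases, beside 2850.5 bases for the other coding genes.

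The TOP motif was searched as C followed by at least 4 pyrimidines on the transcribed strand at the annotated RefSeq start site (GRCm38.p6). It was found in 14 of the 66 members with a window (21.2%) and in 2.79% of 6735 other tested genes, with 3.01% over all windows. Allowing a shift of up to 10 bases gave 47.0% and 29.8%. The first 20 bases of the 4 most abundant members with the exact match are printed with the motif in capitals. They were chosen for carrying the motif, so they do not show how common it is.
Rps27rt (chr9:114982720-114982739, minus strand): CTTTCCggcggtgacgacct
Rps18 (chr17:33955646-33955665, minus strand): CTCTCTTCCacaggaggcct
Rpl38 (chr11:114668580-114668599, plus strand): CTTTCCCCgttctcttcggt
Rps21 (chr2:180257379-180257398, plus strand): CTCCTgcccaatagtgctgc

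Genes that work with ribosomal proteins were examined from lists. Fau and Rack1, which supply further proteins of the small subunit, were not called in any of the 3 comparisons, nor were 18 other TOP mRNAs or 12 genes of mTORC1 and S6 kinase signalling. Of 32 tested genes of ribosome biogenesis, 1 was higher in Upf3b-ASO livers, Nop10, a protein of the H/ACA particles that modify ribosomal RNA, by 0.45 ± 0.11 on the log2 scale against control ASO (edgeR adjusted p = 0.028) and 0.43 ± 0.11 against DPBS (adjusted p = 0.033). Of 40 translation factors, the initiation scaffold Eif4g1 fell by 0.46 ± 0.11 against control ASO (edgeR adjusted p = 0.023) and by 0.45 ± 0.11 against DPBS (adjusted p = 0.027). The helicase Eif4a2 rose by 0.40 ± 0.10 against DPBS (adjusted p = 0.031). Of 9 NMD factors tested, Upf3b and Smg6 were lower and Upf2 was higher in both comparisons, with Smg6 at -1.70 ± 0.12 and Upf2 at 0.77 ± 0.10 against control ASO (edgeR adjusted p = 3.8e-05 and 0.0010). None of these lists held a call between control ASO and DPBS, where 0.0113% of all genes were called. Over all genes 10.3% were called in Upf3b-ASO livers against control ASO and 8.93% against DPBS. For lists this short, the lack of a call therefore says little.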

How the data were processed

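RNA was measured in livers of 12 mice in 3 groups of 4, which the labels assign by treatment. Each deposited file holds 1 mouse. Libraries were made by the authors with a TruSeq total RNA kit, and per the submitters' processing notes used bcl2fastq 2.17.1.14 and Salmon 0.7.2 with build GRCm38.p4. The reference was Ensembl cDNA. The estimated counts were deposited by the authors as the reads Salmon assigned to each transcript, fractional where transcripts share reads. TPM values were deposited by the authors per transcript, scaled to a fixed sum over all 92468 transcripts. Such assignment among isoforms and pseudogene copies can move counts between members and their copies.

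Transcripts were joined to genes, biotypes and coordinates through GENCODE M21 (98.1% of transcripts, 97.5% to 99.3% of counts and 79.7% to 95.9% of TPM per liver), and TPM was rescaled to the joined genes. Counts were summed per gene and rounded. Genes that reached 5 TPM in 4 or more livers were tested with edgeR 4.0.16 (quasi-likelihood test, TMM) in 1 fit with sex as covariate, and adjusted by Benjamini-Hochberg over all genes, as also for transcripts with at least 10 counts in at least 4 livers. A call is an adjusted p under 0.05. Isoform odds were tested with limma 3.58.1 on log2 ratios of counts with a pseudocount of 0.5 and a mean of at least 10 counts on each side. Copies were genes sharing at least 20% of their 31-base stretches with a member. Alternatives used DESeq2 1.42.0, limma on log2(TPM + 1) and log2(TPM + 0.1), other scalings and filters, no sex covariate, a replicate block and fits without each liver. Tests were checked on simulated data.

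Members and lists were chosen with earlier results of these data known. Members were named by a rule: those called and the 5 largest differences in each direction against control ASO, the 5 highest and 3 lowest TPM, paralog pairs, members known for splicing coupled to decay, the largest isoform changes, and a few of known role. Any other member named was chosen after its values were seen. Replicate numbers of the labels were checked as pairs: deviations from group means of same-numbered livers correlated at 0.198 to 0.610, but the numbers follow sex, and with sex removed the correlation was -0.443 to 0.215. The depth was 13277892 to 20387682 counts and lower in all Upf3b-ASO livers than in the others. Reads had no molecular identifiers, and the p-values measure the spread between mice. Upf1-ASO livers were not analysed here, and a few members, isoforms and sequences are not reported here.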

Additional observations from a re-analysis of the deposited data

Results flagged for a closer look

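In groups of 4 livers, single values were examined for distance from the other 3 by Dixon's criterion. Of 138 groups of named members, isoforms and shares, 14 (10.1%) held such a value, where chance gives about 1 in 20, and 7 of the 14 were in control ASO replicate 3.

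In control ASO replicate 3, Rpl10 was at 192.7 CPM (154.0 to 160.0 in the other 3 livers), Rpl10a at 158.6 CPM (73.1 to 85.9), Rpl12 at 19.7 CPM (7.11 to 7.60), Rpl21 at 119.4 CPM (97.8 to 100.03) and Rps27 at 5.48 CPM (2.75 to 3.00). The NMD isoforms Rpl10a-203 and Rpl12-201 were at 44.6 CPM (6.87 to 12.3) and 9.75 CPM (2.67 to 2.75) in the same liver.

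In Upf3b-ASO livers, Rpl12 was at 20.6 CPM in replicate 4 (15.5 to 16.2), Rps27 at 15.6 CPM in replicate 1 (3.09 to 4.20), Rps19bp1 at 6.52 CPM in replicate 1 (8.09 to 8.21) and Rpl12-201 at 4.65 CPM in replicate 2 (9.22 to 9.77). In DPBS livers, Rpl13a was at 20.9 CPM in replicate 2 (29.5 to 29.8), Rps27rt at 113.8 CPM in replicate 1 (96.1 to 97.8), and the NMD share of ribosomal protein TPM at 2.22% in replicate 3 (2.04% to 2.07%).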

How the results depend on the processing

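The rise of Rps19-205 passed the threshold in 10 of 10 alternatives in both comparisons (log2 1.41 to 1.51 against control ASO and 1.75 to 2.07 against DPBS). For transcripts these were a minimum of 50 counts, the replicate block and 8 fits that each left out 1 liver. DESeq2, limma, the other scalings and filters, and the fit without the sex covariate were not run on transcripts. With the share of all genes called in parentheses, the members called against control ASO (2) were 5 (10.8%) by library size only, 0 (3.62%) without the filter, 1 (5.87%) without the sex covariate, 4 (17.9%) by DESeq2 and 4 by limma (6.93% with pseudocount 1, 6.4% with 0.1). Against DPBS (3) they were 13 (7.07%), 1 (3.08%), 2 (5.39%), 9 (14.4%) and, by limma, 7 (4.39%) or 5 (4.11%). Between the sexes (1) they were 2 (10.1%) by library size only, 0 (4.2%) without the filter, 3 (15.4%) by DESeq2, 38 (24.7% or 24.0%) by limma and 2 (10.1%) with members summed with their copies, an alternative chosen after seeing the data. Leaving out each liver gave 0 to 5 against control ASO (4.91% to 24.5% of all genes), 0 to 3 against DPBS (4.52% to 6.27%), 0 to 4 between the sexes (6.57% to 21.9%), 0 to 24 for the interaction (0% to 43.7%) and 1 to 3 for transcripts against control ASO. A minimum of 50 counts gave 3 transcripts there (Rpl15-202, Rps19-205 and Rps27l-201). The main fit called 1 member transcript there, beside 0.792% of all transcripts. The NMD odds gave 1 member against DPBS with pseudocount 5, and 1 against each reference with at least 50 counts, in each case Rps19. The ratio of NMD shares of Upf3b-ASO to DPBS was 1.05 by counts and 0.98 by TPM. The median against control ASO was 0.20 by library size only. Rpl10 turned from -0.18 to 0.0025 against control ASO by library size only, and Rpl22l1 was -0.072 without Upf3b-ASO replicate 2 and ran from -0.07 to 0.36 without single livers. The causes were not tested beyond the construction of each alternative.

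With the replicate block as pairing, 2 members were called against control ASO (Rpl7l1 and Rps19bp1), beside 7.9% of all genes. Against DPBS 2 were called (Rpl12 and Rps19), beside 6.85% of all genes. Rps19-205 passed in both comparisons (edgeR adjusted p = 0.036 and 0.013), and no isoform share did. Depth limits the isoforms: Rpl12-201 rested on 28.8 to 148 counts per liver and Rps9-210 on 13.6 to 85.1. Pseudogene copies limit Rpl12, Rpl5, Rpl10 and Rps12, among others.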
